A study of Mus musculus with 20 samples.

Results

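Iron handling was examined through 9 genes, taken from a list by their mouse symbols: Slc40a1, Cp, Hmox1, Cd163, Fth1, Ftl1, Tfrc, Slc11a2 and Slc11a1. They are 9 of 36528 gene models in the count files, all 9 had enough counts to be tested, and 15390 models in all were tested. The counts come from RNA sequencing of tumour macrophages and tumour monocytes of mice carrying MC38 tumours, which grow from a transplanted mouse colon carcinoma line. The 4 groups of 5 libraries were macrophages under anti-PD-L1, macrophages of control tumours, monocytes under anti-PD-L1 and monocytes of control tumours, 20 libraries in all. Anti-PD-L1 is a checkpoint-blocking antibody that releases T cells from inhibition through PD-1, and all groups were collected at day 7 after treatment began. Tumours were present in every group, so no group stands for cells of healthy tissue. The sources used here do not state the mouse strain, age or sex, the content of the control treatment, the sorting gates or the number of animals behind a library. The p-values below therefore measure the spread between libraries, which may be technical.

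Macrophages recycle much of the body's iron: they engulf aged red cells, break haem down with haem oxygenase 1 (Hmox1), and either store the iron in ferritin or send it out through ferroportin, the exporter encoded by Slc40a1. Iron enters other cells mainly as transferrin bound to the transferrin receptor (Tfrc), and Slc11a2 (DMT1) carries it from the endosome into the cytosol. In the cytosol, iron regulatory proteins read the iron supply and bind hairpins called iron-responsive elements. A hairpin before the coding sequence holds back translation when iron is scarce, and hairpins after it stabilise the mRNA, so RNA levels of ferritin do not report ferritin protein.

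The iron-responsive elements of these genes are shown because they are the sequence feature that ties ferroportin, ferritin and the transferrin receptor together. Each was found in GENCODE M21 coding transcripts (GRCm38) as a C, 5 bases, the loop CAGTGN with N other than G, and 5 bases that pair with the first 5 by A-T, G-C or G-T, read on the transcript strand. Capitals mark the 6 bases of the loop, and 6 flanking bases stand on each side. The ferroportin element lies in the 5′ UTR at chr1:45925465-45925493 (minus strand), in 1 of 4 coding transcripts. The ferritin elements lie in the 5′ UTR of Fth1 at chr19:9982732-9982760 (plus strand, 4 of 5 coding transcripts) and of Ftl1 at chr7:45459779-45459807 (minus strand, 1 of 2 coding transcripts).
Slc40a1 5′ UTR: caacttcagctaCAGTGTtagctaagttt
Fth1 5′ UTR: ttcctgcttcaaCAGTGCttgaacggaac
Ftl1 5′ UTR: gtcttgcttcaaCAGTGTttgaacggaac
Tfrc held 4 elements, all in the 3′ UTR on the plus strand in 1 of 3 coding transcripts, at chr16:32631219-32631247, chr16:32631598-32631626, chr16:32631663-32631691 and chr16:32631710-32631738.
Tfrc site 1: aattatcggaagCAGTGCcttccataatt
Tfrc site 2: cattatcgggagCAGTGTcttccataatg
Tfrc site 3: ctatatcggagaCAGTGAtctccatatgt
Tfrc site 4: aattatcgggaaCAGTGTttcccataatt
The pattern was present in 4 of the 9 genes, against 222 of 21877 coding genes (1.01%) with a match anywhere in a coding transcript. The loop letters alone stood in 93.9% of coding genes. The pattern is the canonical form of an element these genes were already known to share, so the comparison does not test the members. Only 1 coding gene held 4 distinct sites, and 217 held 1. No match in Slc11a2 says only that this full pattern, with its 5 unbroken pairs, is not in its annotated coding transcripts. Hairpins whose stems pair in another way were not searched for.

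Library totals lay between 30191509 and 36514133 counts, and 3 counts equalled 0.0994 CPM (counts scaled to a common library size) in the shallowest library, a floor that covers counting error only. The labels of the cells held: of 10 macrophage markers 8 were higher and none lower, and of 10 monocyte markers 10 were lower, in macrophages against monocytes in both anti-PD-L1 and control tumours. Every control library has a lower sample number than every treated one, so treatment and the order of these numbers cannot be told apart. RNA of other cells also moved with treatment. The mean log2 CPM of 14 fibroblast markers was 1.25 to 3.20 in treated and 1.62 to 5.52 in control macrophages, and 1.43 to 3.64 in treated and 3.04 to 6.04 in control monocytes. In the test below, 8 of the 14 fell in macrophages and 10 of 14 in monocytes, and the most abundant, Col3a1, averaged 59.4 CPM in treated against 539 CPM in control macrophages and 117 CPM in treated against 883 CPM in control monocytes. No fibroblast marker was absent from all libraries of a group. The 6 libraries highest in these markers were all controls, namely macrophage replicates 1, 3 and 5 and monocyte replicates 1, 3 and 4. Part of the results are given with and without them. Without them, control macrophages keep only replicates 2 and 4 and control monocytes only replicates 2 and 5, so calls are harder to reach. The mean of 12 cell cycle genes was 4.96 to 5.95 in treated and 5.87 to 6.25 in control macrophages, and 1.82 to 3.43 in treated and 2.24 to 5.02 in control monocytes, where 11 of 12 fell. In sorted bulk samples such as these, fewer cells of a type and less RNA per cell cannot be told apart.

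Per unit of transcript length, ferritin heavy chain dwarfed the other members. Fth1 averaged 4418 nRPKM (the deposited reads per kilobase, adjusted for library size) over the 20 libraries, which placed it 8th among all 36528 models. Ftl1, the ferritin light chain, followed at 206 nRPKM, Hmox1 at 183 and Slc11a1, a metal transporter of the phagosome membrane, at 163. The ranges of these last 3 over the 20 libraries overlapped, at 151 to 302, 102 to 457 and 93.3 to 235 nRPKM. The uptake genes were lower, with Tfrc at 12.8 nRPKM (8.27 to 22.3) and Slc11a2 at 6.17 nRPKM (4.08 to 8.55). Cp, the ferroxidase ceruloplasmin that helps load exported iron onto transferrin, averaged 2.38 nRPKM (0.601 to 6.25). Slc40a1 averaged 0.747 nRPKM (0.134 to 3.89) and Cd163, the haemoglobin-haptoglobin scavenger receptor, 0.240 nRPKM (0.0246 to 1.46), so the exporter and the haemoglobin receptor stood at the bottom. Slc40a1 rested on 15 to 397 counts per library and Cd163 on 4 to 230 counts.

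The ratio of Fth1 to Ftl1 nRPKM was 15.8 to 25.2 in the 20 libraries, with a median of 21.5. Both genes have processed pseudogenes in the annotation, among them Fth-ps2, Fth-ps3, Ftl1-ps2 and Ftl2-ps. The files count uniquely aligned reads, so reads shared with such copies may have been dropped, and the ferritin levels and their ratio are uncertain for that reason.

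**Figure D1:**
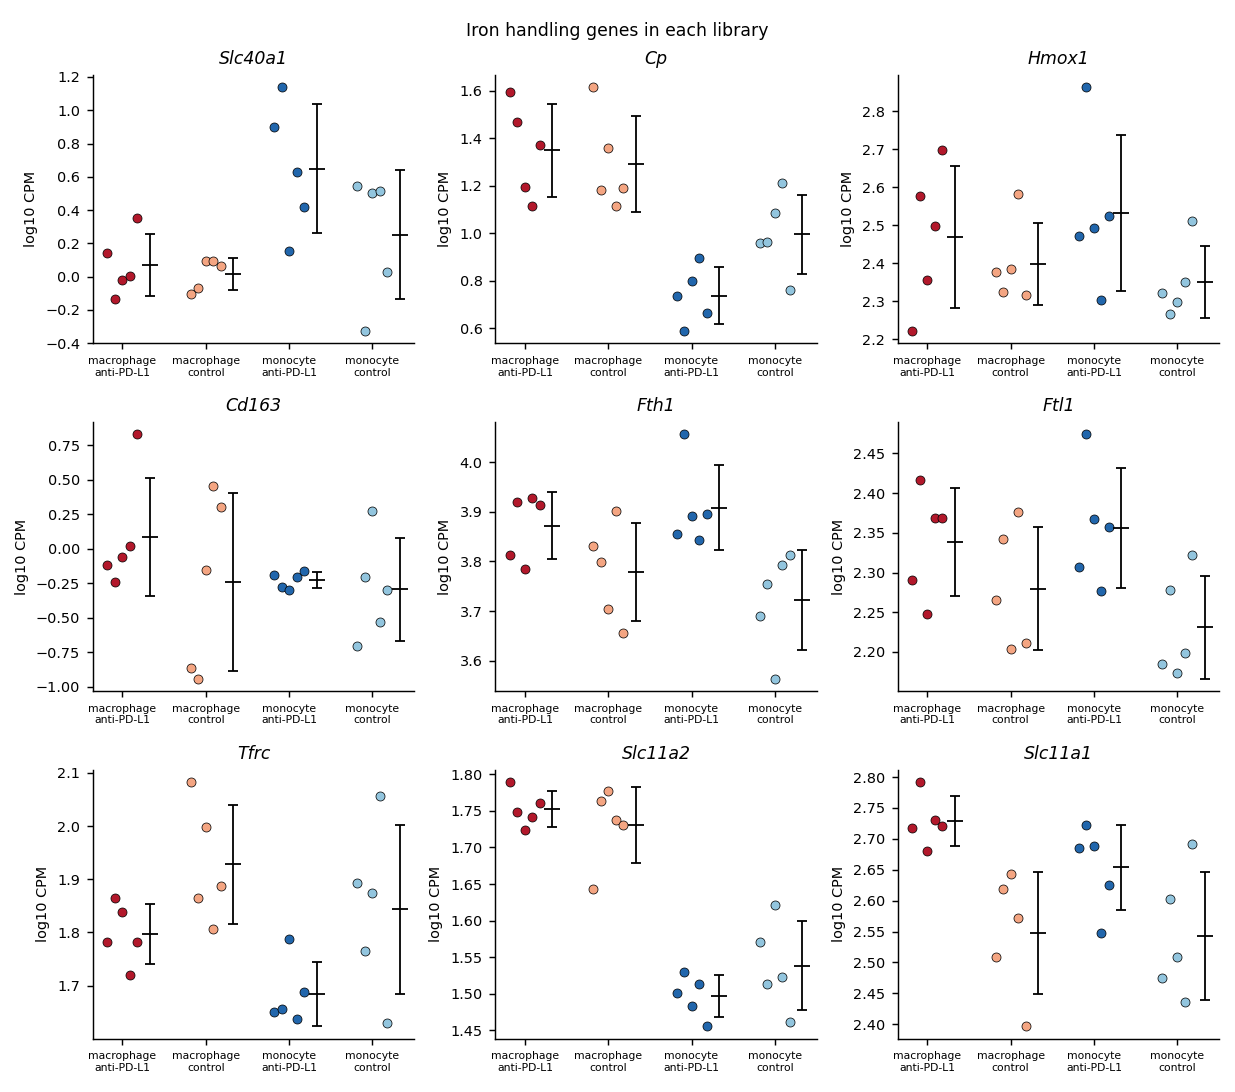
Level of the 9 iron handling genes in each library, as log10 CPM on the vertical axis, with anti-PD-L1 groups left of their controls and bars for mean ± SD over 5 libraries. Fth1 in treated monocytes and Slc11a1 in treated macrophages lie wholly above their controls, and Slc40a1 in treated monocytes is spread from 1.44 to 13.8 CPM.

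Under anti-PD-L1, monocytes had more ferritin mRNA and less transferrin receptor mRNA, and macrophages had more Slc11a1. In monocytes, 2 of 9 members rose (Fth1 and Ftl1) and 1 fell (Tfrc) in edgeR's quasi-likelihood test at a Benjamini-Hochberg adjusted p under 0.05, where 9.92% of all tested genes rose and 15.4% fell (25.3% in either direction). In macrophages, 1 of 9 rose (Slc11a1) and none fell, where 1.73% of all genes rose and 2.92% fell (4.65% in either direction). At an unadjusted p under 0.05, 2 members passed in macrophages and 7 in monocytes. Of all 15390 tested genes, 3620 passed that limit in macrophages and 5906 in monocytes. At the adjusted threshold, the 3 of 9 in monocytes is near the background share, and the macrophage count is 1 gene. The groups did not overlap for 1 of 9 members in macrophages, Slc11a1, where all treated libraries lay above all controls for 4.11% of genes and below them for 2.83% (6.94% in either direction). In monocytes they did not overlap for Fth1, against 5.09% of genes above and 2.13% below (7.23% in either direction). The median log2 fold change of the 9 members was 0.26 in macrophages and 0.35 in monocytes, where the median of all tested genes was -0.012 and 0.020. With libraries scaled by their totals alone the median of all genes became -0.15 in macrophages and -0.20 in monocytes, and the genes called higher and lower became 130 and 791 in macrophages, against 266 and 449 with the scaling used here. In monocytes they became 455 and 4268, against 1526 and 2374.

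Ferritin heavy chain was the member with the clearest shift in monocytes. Fth1 (Entrez 14319, chromosome 19, 9980600 to 9985111, RefSeq positions on GRCm38 as for the other genes), the ferroxidase subunit of the iron storage shell, measured 7154, 11392, 7779, 6985 and 7859.5 CPM in treated monocytes, against 4889, 5687, 3659, 6212 and 6500.2 CPM in control monocytes. All treated libraries lay above all controls, and treated replicate 2 stood well above the other four. The means were 8234 ± 1806 CPM in treated and 5389 ± 1145 CPM in control monocytes (SD, n = 5 each), a log2 fold change of 0.61 (SE 0.19, adjusted p = 0.0238). In macrophages Fth1 measured 6491, 8330.4, 6106, 8484 and 8206 CPM under anti-PD-L1, against 6775, 6307, 5068, 7991 and 4524 CPM in controls. These groups overlapped, and the log2 fold change was 0.29 (SE 0.19, adjusted p = 0.371). The monocyte call was lost without treated monocyte replicate 2 (0.45, adjusted p = 0.0892), control monocyte replicate 1 (0.58, 0.0526) or control monocyte replicate 3 (0.50, 0.0714), when scaled by library totals (0.40, 0.0511), and when only the monocyte libraries were fitted (0.60, 0.0728). It was also lost with the fibroblast level as covariate (0.36, adjusted p = 0.480) and without the 6 controls highest in those markers (0.42, adjusted p = 0.398).

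The light chain moved with the heavy chain in monocytes. Ftl1 (Entrez 14325, chromosome 7, 45457944 to 45459886), the subunit that promotes formation of the iron core, measured 203, 298, 233, 189 and 228 CPM in treated monocytes, against 153, 189, 149, 158 and 209.8 CPM in control monocytes. The groups overlapped, with the same treated replicate 2 highest. This gave a log2 fold change of 0.42 (SE 0.14, adjusted p = 0.0397), from means of 230.1 ± 42.0 CPM in treated and 172 ± 26.5 CPM in control monocytes (SD, n = 5 each). In macrophages Ftl1 averaged 220.1 ± 33.6 CPM under anti-PD-L1 and 193 ± 34.7 CPM in controls (log2 fold change 0.19, SE 0.14, adjusted p = 0.464). The monocyte call for Ftl1 held in 5 of 20 fits that left out 1 library, namely those without treated monocyte replicate 1 or 4, macrophage control replicate 4 or control monocyte replicate 2 or 5, and otherwise the adjusted p was 0.0533 to 0.148. With the fibroblast covariate the value was 0.23 (adjusted p = 0.579), without the 6 controls 0.19 (0.671), with library totals 0.21 (0.177), in monocytes alone 0.40 (0.0726), without a filter on low genes 0.42 (0.0559) and in limma-voom with no block 0.41 (0.0516).

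The mRNA of the transferrin receptor went the other way. Tfrc (Entrez 22042, chromosome 16, 32608896 to 32632794) measured 44.8, 45.3, 61.3, 43.4 and 48.8 CPM in treated monocytes, against 78.1, 58.2, 74.9, 114 and 42.6 CPM in control monocytes. The treated libraries were close together, while control replicate 5 lay below all of them and control replicate 4 was highest. Tfrc fell by 0.59 on the log2 scale (SE 0.21, adjusted p = 0.0412), with means of 48.7 ± 7.31 CPM in treated and 73.5 ± 26.7 CPM in control monocytes (SD, n = 5 each). In macrophages Tfrc measured 60.5, 73.2, 68.8, 52.5 and 60.6 CPM under anti-PD-L1, against 121, 73.2, 99.8, 63.9 and 77.1 CPM in controls, with a log2 fold change of -0.46 (SE 0.21, unadjusted p = 0.0358, adjusted p = 0.175). The monocyte call was lost on leaving out treated monocyte replicate 1, 2, 4 or 5 or control monocyte replicate 1, 3 or 4 (adjusted p 0.0610 to 0.145), with a value of -0.40 when control replicate 4 was left out, and in fits of monocytes alone (-0.61, 0.0821) and limma-voom with no block (-0.53, 0.0729). It was -0.091 (adjusted p = 0.902) with the fibroblast level as a covariate and -0.067 (0.893) without the 6 controls highest in fibroblast markers.

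Slc11a1 (Entrez 18173, chromosome 1, 74375014 to 74386057), also called Nramp1, pumps divalent metals out of the phagosome and is known for host defence against intracellular microbes. It measured 522, 619.9, 479, 539 and 525 CPM in treated macrophages, against 323, 416, 439.7, 373 and 249 CPM in control macrophages. The groups did not overlap, and the means were 537 ± 51.6 CPM in treated and 360.0 ± 76.2 CPM in control macrophages (SD, n = 5 each). Fitted over all libraries, the log2 fold change was 0.58 (SE 0.16), and its adjusted p of 0.0497 lay just inside the threshold. In monocytes Slc11a1 measured 484, 528, 488, 352 and 423 CPM under anti-PD-L1, against 298, 400.1, 323, 273 and 491 CPM in controls, which overlapped (log2 fold change 0.35, SE 0.16, unadjusted p = 0.0456, adjusted p = 0.122). That monocyte value passed without control monocyte replicate 5 (0.47, adjusted p = 0.0259), and was 0.15 with library totals, 0.16 with the fibroblast covariate and 0.012 without the 6 controls. The macrophage call held in 7 of 20 fits that left out 1 library, and was lost without each of the treated macrophage libraries in turn, control macrophage replicate 1, 3 or 5, treated monocyte replicate 1, 4 or 5 or control monocyte replicate 1 or 2 (log2 fold change 0.51 to 0.69, adjusted p 0.0503 to 0.125). It was also lost with the libraries paired as blocks (0.60, adjusted p = 0.0830) and in limma-voom with no block (0.60, 0.0796), with library totals (0.45, 0.0502), without a filter (0.58, 0.0594), with the fibroblast covariate (0.38, 0.781) and without the 6 controls (0.45, 0.210).

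Slc11a2 (Entrez 18174, chromosome 15, 100387898 to 100424209), the endosomal iron transporter, varied least within groups. It measured 52.9 to 61.6 CPM in treated against 44.0 to 59.8 CPM in control macrophages, and 28.5 to 33.9 CPM in treated against 28.9 to 41.9 CPM in control monocytes. Its log2 fold change was 0.068 in macrophages (95% interval -0.13 to 0.26, adjusted p = 0.711) and -0.15 in monocytes (-0.35 to 0.05, adjusted p = 0.261). With library totals the monocyte value was -0.38 and passed (adjusted p = 0.0240), and it was -0.072 without control monocyte replicate 3 and 0.011 without the 6 controls.

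The exporter was low throughout and uneven among treated monocytes. Slc40a1 (Entrez 53945, chromosome 1, 45908070 to 45926532) measured 7.90, 13.8, 1.44, 4.24 and 2.63 CPM in treated monocytes, against 3.52, 0.470, 3.18, 3.27 and 1.07 CPM in control monocytes. Treated replicates 1 and 2 were high, replicate 4 lay just above the controls, and the other two lay among them. The fitted log2 fold change was 1.38 (SE 0.53, 95% interval 0.26 to 2.49), with an unadjusted p of 0.0181 and an adjusted p of 0.0639, so it did not pass. In macrophages Slc40a1 measured 1.38, 0.738, 0.954, 1.01 and 2.26 CPM under anti-PD-L1, against 0.785, 0.855, 1.25, 1.24 and 1.17 CPM in controls. These overlapped (log2 fold change 0.26, SE 0.55, adjusted p = 0.818). Of 10 listed neutrophil markers 5 were tested. Neutrophil marker RNA also varied among the monocyte libraries, and no correlation with Slc40a1 was computed. Its mean log2 CPM over 5 tested markers was 6.18, 5.96, 3.73, 4.93 and 4.52 in treated monocytes, against 5.33, 2.97, 4.75, 5.56 and 3.15 in control monocytes, replicates 1 to 5 each. Of these 5 markers 1 rose under treatment in monocytes, the summed CPM of the list was 236 to 542 in treated and 164 to 389 in control monocytes, and its part in the Slc40a1 values was not tested. The monocyte value passed without treated monocyte replicate 3 (1.61, adjusted p = 0.0267) and in DESeq2 (1.38, 0.0332). It was 0.78 (adjusted p = 0.294) without treated monocyte replicate 2 and 2.94 (0.137) without the 6 controls highest in fibroblast markers. That last fit kept only control monocyte replicates 2 and 5, which had the lowest Slc40a1 of the control monocytes (0.470 and 1.07 CPM).

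Cp (Entrez 12870, chromosome 3, 19956933 to 20009750) measured 5.47, 3.87, 6.27, 7.90 and 4.62 CPM in treated monocytes, against 9.07, 9.21, 12.1, 16.3 and 5.78 CPM in control monocytes. Control replicate 5 lay inside the treated range and the other controls above it. Cp differed by a log2 fold change of -0.90 (SE 0.35, unadjusted p = 0.0181, adjusted p = 0.0638), which did not pass. In macrophages Cp was spread widely in both groups, at 39.3, 29.6, 15.7, 13.03 and 23.5 CPM under anti-PD-L1, against 41.4, 15.2, 22.9, 13.03 and 15.5 CPM in controls (log2 fold change 0.16, SE 0.34, adjusted p = 0.815). The monocyte value passed in DESeq2 (-0.90, adjusted p = 0.0369), in monocytes alone (-0.91, 0.0482), with library totals (-1.13, 0.0267) and without macrophage control replicate 1 (-0.90, 0.0323) or control monocyte replicate 5 (-1.08, 0.0237). It was -0.17 with the fibroblast covariate (adjusted p = 0.903) and -0.43 without the 6 controls (0.660).

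Haem oxygenase 1 did not pass in either cell type. Hmox1 (Entrez 15368, chromosome 8, 75093618 to 75100593) measured 296, 733, 311, 201 and 335 CPM in treated monocytes, against 210.2, 185, 199, 224 and 324 CPM in control monocytes. Treated replicate 2 was the highest of all 20 libraries, and the remaining libraries of both groups overlapped. The log2 fold change was 0.72 (SE 0.31, unadjusted p = 0.0322, adjusted p = 0.0956), and it was 0.31 without treated replicate 2. In macrophages Hmox1 measured 166, 378, 227, 315 and 499 CPM under anti-PD-L1, against 239, 211, 242, 382 and 207 CPM in controls (log2 fold change 0.31, SE 0.31, adjusted p = 0.595). Erythroid marker RNA was low: the most abundant marker, Hbb-bs, reached at most 12.9 CPM. None of the 5 tested of 10 listed erythroid markers was called by treatment. With each group's mean subtracted, Hmox1 had a Pearson r of 0.40 with the erythroid level over the 20 libraries. That was the highest of the 9 members, the lowest being Slc11a2 at -0.39. The part of red cells or their haem in the Hmox1 values was not tested.

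Cd163 (Entrez 93671, chromosome 6, 124304636 to 124330529) measured 0.757, 0.570, 0.870, 1.05 and 6.74 CPM in treated macrophages, against 0.135, 0.114, 0.702, 2.82 and 2.02 CPM in control macrophages. Treated replicate 5 stood alone, and the other treated libraries fell inside the control range. The log2 fold change was 0.78 (SE 0.79, adjusted p = 0.595), and it was -0.47 without treated replicate 5. In monocytes Cd163 ranged over 0.499 to 0.684 CPM under anti-PD-L1 and 0.197 to 1.88 CPM in controls (log2 fold change -0.24, SE 0.83, adjusted p = 0.857).

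**Figure D2:**
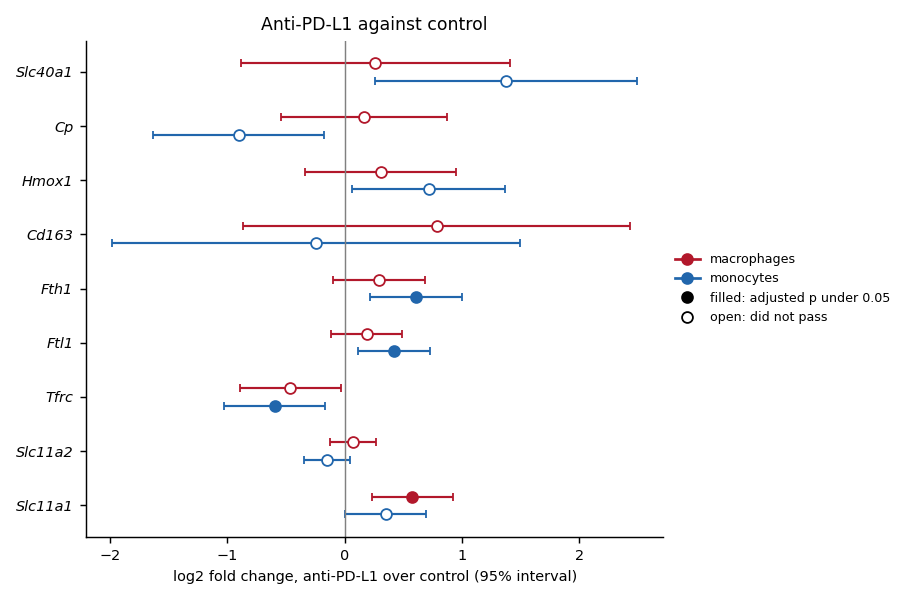
Log2 fold change of each gene, anti-PD-L1 over control, with its 95% interval on the horizontal axis, for macrophages and monocytes; filled points passed an adjusted p of 0.05. Slc11a1 is filled in macrophages (0.58), and Fth1 (0.61), Ftl1 (0.42) and Tfrc (-0.59) are filled in monocytes.

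The treatment effects were not shown to differ between the cell types. In the test of the macrophage effect minus the monocyte effect, 0 of 9 members and 0% of 15390 genes passed in edgeR, 980 genes had an unadjusted p under 0.05, and the smallest adjusted p was 0.174. Other tools called 5 genes (DESeq2) or 2 higher and 6 lower (limma-voom with blocks), none of them a member. Cp had the largest contrast for its error, 1.06 (SE 0.49, 95% interval 0.05 to 2.08, unadjusted p = 0.0408, adjusted p = 0.764). For Fth1 the difference of effects was -0.32 (95% interval -0.87 to 0.24), for Tfrc 0.13 (-0.48 to 0.74) and for Slc11a1 0.23 (-0.26 to 0.71), intervals wide enough to hold effects as large as those within a cell type.

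The members followed the fibroblast and cell cycle levels of their libraries to different degrees. After each group's mean was subtracted, log2 CPM over the 20 libraries had a Pearson r with the fibroblast level of 0.69 for Tfrc, 0.55 for Cp, -0.49 for Fth1, -0.44 for Ftl1, -0.42 for Slc11a1 and -0.08 for Slc40a1. With the cell cycle level, r was 0.73 for Tfrc, 0.49 for Cp, 0.34 for Slc11a2, 0.13 for Slc40a1 and 0.094 for Cd163. It was -0.57 for Slc11a1, -0.42 for Ftl1, -0.37 for Fth1 and -0.26 for Hmox1. These are descriptions over libraries that share group and depth, and the part of the cell cycle level in the treatment results was not tested. For the fibroblast level, the values given above with and without the highest controls are the measurement at hand: no member stayed past the threshold for treatment in either fit. Few genes of any kind did: the covariate fit called 1 gene higher and 1 lower in macrophages and 5 and 2 in monocytes, and the fit without the 6 controls called 64 and 6 in macrophages and 67 and 16 in monocytes, so 0 of 9 is not a result about the members.

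**Figure D3:**
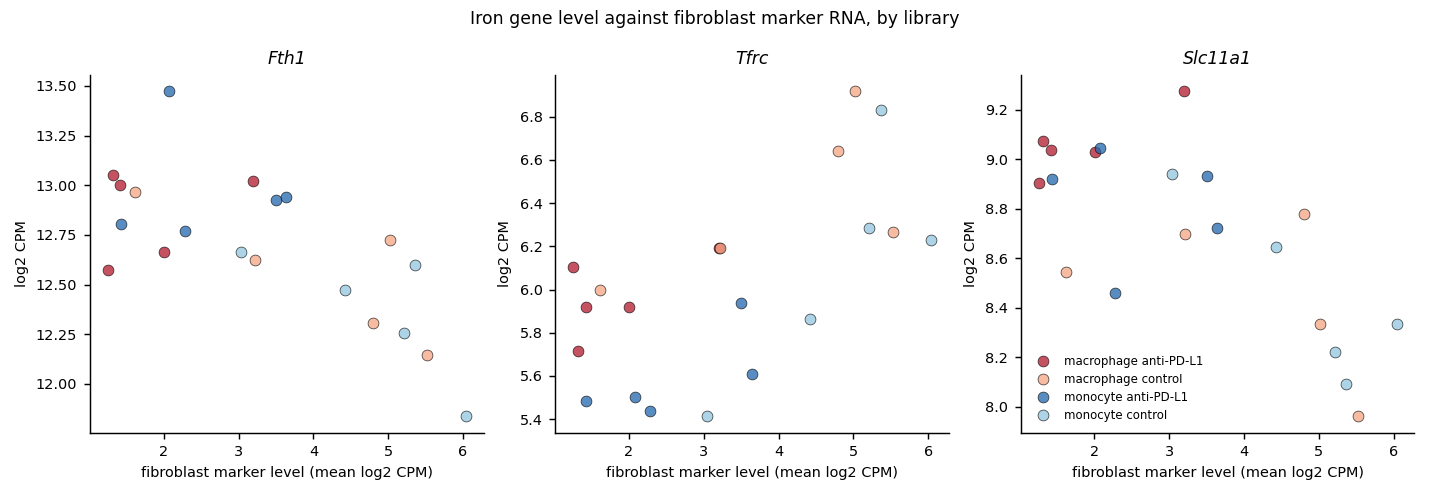
Log2 CPM of Fth1, Tfrc and Slc11a1 on the vertical axes against the mean log2 CPM of 14 fibroblast markers in the same library, colours marking the 4 groups. Control libraries extend to a fibroblast level of 6.04, and Tfrc is higher and Fth1 and Slc11a1 lower toward that end.

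Between the sorted cell types, macrophages had more Cp and Slc11a2 and, under anti-PD-L1, less Slc40a1 than monocytes. Under anti-PD-L1, 2 of 9 members were higher and 1 lower in macrophages, where 28.2% of all genes were higher and 25.7% lower (53.9% in either direction). In control tumours 2 were higher and none lower, where 24% of genes were higher and 20% lower (44.1% in either direction). These shares of members lay below the background. The median log2 fold change of the 9 members was 0.24 in treated and 0.19 in control tumours, against -0.010 and -0.0044 for all genes tested. With library totals alone the median of all genes became 0.14 in treated tumours, and 5387 genes were higher and 3005 lower, against 4334 and 3959 with the scaling used here. All 12 cell cycle genes were higher in macrophages in both treatments, and their part in these results was not tested. The cell-type contrasts use the same libraries as the treatment contrasts and are not independent of them.

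Slc11a2 gave the most even separation. It averaged 56.7 ± 3.25 CPM in treated macrophages and 31.4 ± 2.05 CPM in treated monocytes (SD, n = 5 each), and every macrophage library exceeded every monocyte library, as for 25% of all genes (22% lay below and 47% were apart in either direction). Its difference was 0.85 on the log2 scale (SE 0.09, adjusted p = 4.71e-07). In control tumours Slc11a2 averaged 54.1 ± 6.13 CPM in macrophages and 34.8 ± 4.93 CPM in monocytes, again without overlap (14.3% of genes above, 10.8% below, 25.1% in either direction), with a log2 fold change of 0.64 (SE 0.09, adjusted p = 2.11e-05). Both calls held in all 20 fits that left out 1 library. The gene shares 2926 bases with Gm5475 on the opposite strand, which reached at most 0.0698 CPM.

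Cp averaged 24.2 ± 10.6 CPM in treated macrophages and 5.63 ± 1.56 CPM in treated monocytes, without overlap (log2 fold change 2.10, SE 0.36, adjusted p = 5.75e-05). In control tumours it averaged 21.6 ± 11.7 CPM in macrophages and 10.5 ± 3.94 CPM in monocytes, with overlap (log2 fold change 1.04, SE 0.34, adjusted p = 0.0186). The control call was lost without control macrophage replicate 1 (0.65, adjusted p = 0.0994) or control monocyte replicate 5 (0.89, 0.0508), and in the fit without the 6 controls highest in fibroblast markers (0.90, 0.109). Cp overlaps Hps3 on the opposite strand over 13201 bases, and whether counting used strand is not stated. Hps3 stood at 57.1 to 96.0 CPM and did not pass between cell types, with log2 fold changes of -0.093 in treated and -0.065 in control tumours.

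Slc40a1 was the only member called lower in macrophages. It averaged 1.27 ± 0.598 CPM in treated macrophages and 6.01 ± 5.01 CPM in treated monocytes, where treated monocyte replicate 3, at 1.44 CPM, lay inside the macrophage range. The fitted difference was -2.24 (SE 0.55, adjusted p = 0.00201), and it was -2.51 to -1.64 with 1 library left out, past the threshold in all 20 such fits. Of 5 tested erythroid markers 2 were also lower in treated macrophages, with Hbb-bs at 3.03 CPM in macrophages and 7.19 CPM in monocytes. All 5 tested of 10 listed neutrophil markers were lower, where 25.7% of all genes were lower. The neutrophil list sum was 78.6 to 124 CPM in treated macrophages and 236 to 542 CPM in treated monocytes. The part of either list in the result was not tested. In control tumours the means were 1.06 ± 0.222 CPM in macrophages and 2.30 ± 1.42 CPM in monocytes (log2 fold change -1.12, SE 0.55, adjusted p = 0.104). That value passed without control monocyte replicate 2 (-1.38, adjusted p = 0.0389) and was 0.44 without the 6 controls.

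The other members did not pass between cell types with the fit used here. Fth1 differed by -0.13 in treated tumours (95% interval -0.52 to 0.26) and 0.19 in control tumours (-0.20 to 0.58), and Ftl1 by -0.064 (-0.37 to 0.24) and 0.17 (-0.14 to 0.47). Hmox1 differed by -0.24 (-0.89 to 0.40) and 0.17 (-0.48 to 0.81), and Slc11a1 by 0.24 (-0.10 to 0.58) and 0.012 (-0.33 to 0.35). With library totals Slc11a1 passed in treated tumours (0.39, adjusted p = 0.0163). Tfrc was 0.37 log2 units higher in treated macrophages (adjusted p = 0.137) and did not pass. It passed when neighbouring libraries were paired as blocks in limma-voom (0.37, adjusted p = 0.0117), when only the treated groups were fitted (0.35, 0.0177), with the fibroblast covariate (0.53, 0.00753), without the 6 controls (0.38, 0.0136) or without treated monocyte replicate 3 (0.51, 0.0494). In control tumours Tfrc differed by 0.24 (adjusted p = 0.371) and passed with the fibroblast covariate (0.43, 0.0361). Cd163 differed by 1.74 in treated tumours (95% interval 0.02 to 3.47, unadjusted p = 0.0481, adjusted p = 0.0826). That value was 0.47 without treated macrophage replicate 5, and it passed when only the treated groups were fitted (1.72, adjusted p = 0.0365).

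**Figure D4:**
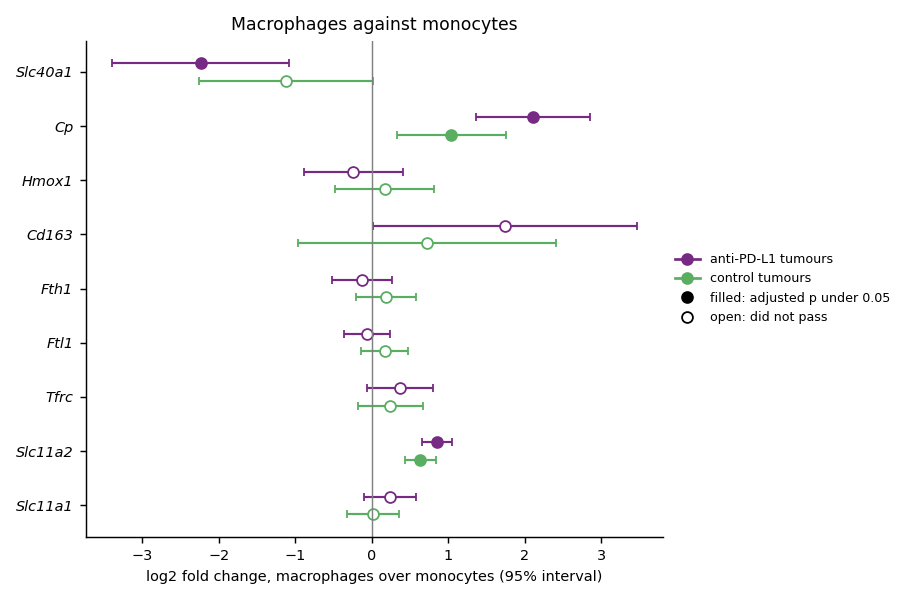
Log2 fold change of each gene, macrophages over monocytes, with its 95% interval on the horizontal axis, in anti-PD-L1 and in control tumours; filled points passed an adjusted p of 0.05. Cp and Slc11a2 are filled to the right in both, and Slc40a1 is filled to the left (-2.24) in anti-PD-L1 tumours.

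Other genes of iron handling, listed by role, gave the setting: 60 were listed and 50 tested. Under anti-PD-L1, 0 rose and 2 fell in macrophages, and 6 rose and 5 fell in monocytes. Of all genes 1.73% rose and 2.92% fell in macrophages and 9.92% rose and 15.4% fell in monocytes, and these counts of 50 lie near those shares. All 4 genes listed for export and its hormone (Heph, Hephl1, Hamp and Hamp2) were too low to test.

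The genes that fell were mostly of the STEAP family, which includes reductases of iron and copper. Steap3, the endosomal ferrireductase of the transferrin cycle, averaged 11.1 ± 2.07 CPM in treated and 19.4 ± 3.31 CPM in control macrophages (log2 fold change -0.80, SE 0.16, adjusted p = 0.0356), and 11.4 ± 1.15 CPM in treated and 19.1 ± 4.75 CPM in control monocytes (-0.74, SE 0.16, adjusted p = 0.00567). Steap1 averaged 0.985 ± 1.09 CPM in treated and 8.33 ± 7.38 CPM in control macrophages (-3.09, SE 0.88, adjusted p = 0.0493), and 1.21 ± 1.23 CPM in treated and 10.9 ± 8.23 CPM in control monocytes (-3.16, SE 0.87, adjusted p = 0.0154). Steap2 averaged 1.86 ± 2.13 CPM in treated and 13.2 ± 9.73 CPM in control monocytes (-2.82, SE 0.86, adjusted p = 0.0226). The fibroblast markers fell in the same groups. With that level as a covariate Steap1 differed by -0.16 in macrophages and -0.31 in monocytes, Steap2 by 0.093 in monocytes, and Steap3 by -0.55 in macrophages and -0.49 in monocytes, and none of these passed. With 1 library left out the call held in 8 of 20 fits for Steap1 and 16 for Steap3 in macrophages, and in 20 for Steap1, 15 for Steap2 and 20 for Steap3 in monocytes. In all, 4 of 13 tested uptake genes fell in monocytes and 2 in macrophages, and none rose. Of all genes 15.4% fell in monocytes and 2.92% in macrophages.

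Of 6 tested genes of iron regulation, 2 rose in monocytes, where 9.92% of all genes rose. Fbxl5, the iron-sensing ubiquitin ligase subunit that removes iron regulatory protein 2, averaged 231 ± 54.9 CPM in treated and 129.9 ± 17.7 CPM in control monocytes (log2 fold change 0.83, SE 0.14, adjusted p = 0.00325), a call that held without any 1 of 20 libraries. Its value was 0.80 (adjusted p = 0.0915) with the fibroblast covariate and 0.77 (0.0962) without the 6 controls. Hif1a, the oxygen-regulated factor, averaged 738 ± 133 CPM in treated and 494 ± 115 CPM in control monocytes (0.58, SE 0.16, adjusted p = 0.0149), and this call was lost without treated monocyte replicate 2 (0.46, 0.0527) and in monocytes fitted alone (0.56, 0.0537). In macrophages none of the 6 tested regulators was called. The iron regulatory proteins themselves, Aco1 and Ireb2, named here after their values were seen, did not pass in either treatment contrast, at -0.20 (SE 0.078) and 0.14 (SE 0.077) in monocytes.

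Of 10 tested genes of haem and haemoglobin handling, 3 rose in monocytes and none fell, where 9.92% of all genes rose and 15.4% fell. Blvrb, a biliverdin reductase, averaged 78.9 ± 15.5 CPM in treated and 49.6 ± 8.55 CPM in control monocytes (log2 fold change 0.67, SE 0.15, adjusted p = 0.00615). Alas1, the first enzyme of haem synthesis, averaged 207 ± 23.7 CPM in treated and 146 ± 39.3 CPM in control monocytes (0.50, SE 0.14, adjusted p = 0.0169), and Hmox2, the constitutive haem oxygenase, 156 ± 9.36 CPM in treated and 128 ± 19.9 CPM in control monocytes (0.29, SE 0.10, adjusted p = 0.0491). Of 5 regulators of the haem response 1 rose: Bach1, the repressor of Hmox1 that haem inactivates, averaged 248 ± 25.5 CPM in treated and 183 ± 44.2 CPM in control monocytes (0.43, SE 0.16, adjusted p = 0.0463). With 1 library left out, Blvrb stayed called in all 20 fits, Alas1 in 17 (lost without treated monocyte replicate 2 or control monocyte replicate 3 or 4), Bach1 in 4 and Hmox2 in 3. Scaled by library totals, Hmox2 was 0.085 and Bach1 0.24, and neither passed. Nqo1, a quinone reductase induced by NRF2, averaged 0.525 ± 0.235 CPM in treated and 1.19 ± 0.512 CPM in control monocytes (-1.18, SE 0.35, adjusted p = 0.0201), a call lost without treated monocyte replicate 4 or control monocyte replicate 3 or 4, while the other 5 tested NRF2 targets did not pass. With the fibroblast level as a covariate none of Blvrb (0.58), Alas1 (0.22), Hmox2 (0.14), Bach1 (0.26), Hif1a (0.39) and Nqo1 (-0.71) passed (adjusted p 0.189 to 0.680), in a fit that called 5 genes higher and 2 lower among all genes in monocytes. All 7 mitochondrial iron genes and all 3 tested storage and delivery genes also did not pass for treatment.

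**Figure D5:**
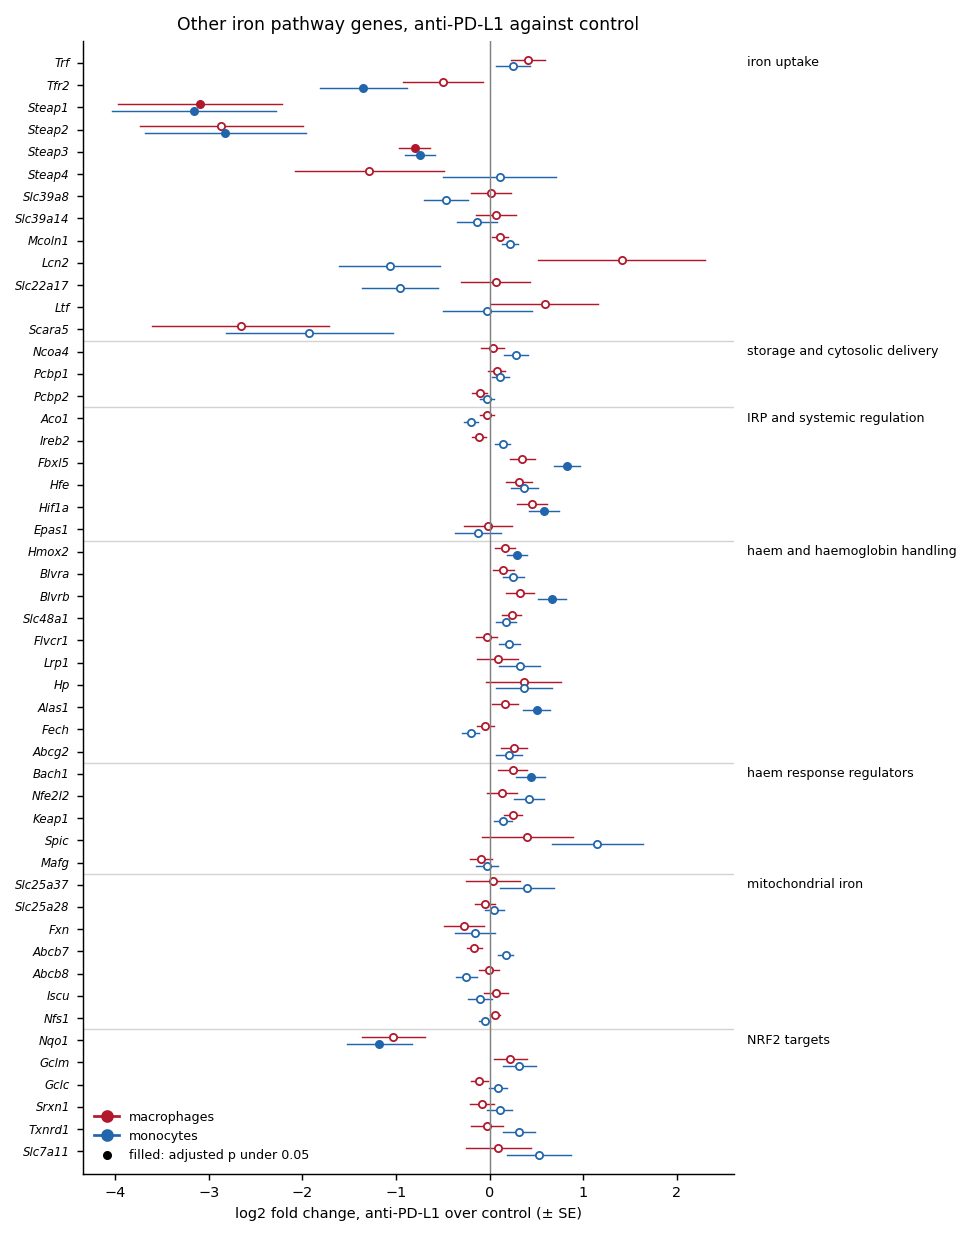
Log2 fold change, anti-PD-L1 over control, with its SE on the horizontal axis for the 50 tested genes of the listed iron pathway roles in macrophages and monocytes; filled points passed an adjusted p of 0.05. Steap1 and Steap3 are filled in both cell types, and Fbxl5 (0.83) has the largest filled rise, in monocytes.

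Between cell types, 14 of the 50 were higher and 20 lower in macrophages under anti-PD-L1, and 13 higher and 17 lower in control tumours. Of all genes 28.2% were higher and 25.7% lower in treated tumours and 24% and 20% in control tumours. Transferrin itself, Trf, averaged 679 ± 104 CPM in treated macrophages and 254 ± 24.1 CPM in treated monocytes (log2 fold change 1.42, SE 0.19, adjusted p = 3.47e-06), and the control difference was 1.26 (SE 0.19, adjusted p = 1.91e-05). Slc39a8 (ZIP8), a zinc transporter that also carries iron, averaged 7.83 ± 1.96 CPM in treated macrophages and 0.894 ± 0.243 CPM in treated monocytes (3.12, SE 0.24, adjusted p = 5.21e-09), and Abcg2, which exports porphyrins, 23.8 ± 1.32 CPM in treated macrophages and 7.05 ± 1.24 CPM in treated monocytes (1.75, SE 0.14, adjusted p = 1.02e-08). Hfe, the haemochromatosis protein, was 0.89 log2 units higher in treated macrophages (SE 0.14, adjusted p = 2.92e-05), and Abcb8, a transporter of the mitochondrial inner membrane, was 0.90 higher (SE 0.11, adjusted p = 1.29e-06). In control tumours Blvra, a biliverdin reductase, was 0.71 higher (SE 0.11, adjusted p = 4.47e-05).

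Of the 6 tested genes of iron regulation, 4 were lower and 2 higher in macrophages under anti-PD-L1, and 3 lower and 2 higher in control tumours. The shares of all genes were 25.7% lower and 28.2% higher in treated tumours, and 20% lower and 24% higher in control tumours. One of those higher was Aco1, iron regulatory protein 1, at 0.44 in treated tumours (SE 0.078, adjusted p = 9.38e-05) and 0.27 in control tumours (SE 0.078, adjusted p = 0.00827). Ireb2, iron regulatory protein 2, went the other way in treated tumours (-0.34, SE 0.077, adjusted p = 0.000969). In control tumours Ireb2 did not pass (-0.091, SE 0.077, adjusted p = 0.372). Aco1 and Ireb2 were again named after their values were seen. Against treated monocytes, treated macrophages were lower in Fbxl5 (log2 fold change -1.23, SE 0.14, adjusted p = 5.97e-07), Hif1a (-1.42, SE 0.16, adjusted p = 6.00e-07) and Bach1 (-1.02, SE 0.16, adjusted p = 1.97e-05). Slc25a37, the mitochondrial iron importer mitoferrin 1, differed by -1.61 (SE 0.29, adjusted p = 0.000125), and Slc7a11, the cystine importer, by -2.37 (SE 0.36, adjusted p = 1.65e-05). In control tumours the same 5 genes differed by -0.76, -1.29, -0.83, -1.25 and -1.93 and all passed. Smaller differences in treated tumours included Alas1 at -0.97, Txnrd1, a thioredoxin reductase, at -0.98, Nfe2l2, the gene of NRF2, at -0.60, Slc25a28 (mitoferrin 2) at -0.53, Mafg at -0.41, Srxn1 at -0.38 and Pcbp1, an iron chaperone, at -0.35, all lower in macrophages. With library totals Mafg (-0.27), Srxn1 (-0.24) and Pcbp1 (-0.19) did not pass, and Srxn1 was called in 15 of 20 fits with 1 library left out. Gclc, of glutathione synthesis, was 0.27 higher in control macrophages (SE 0.094, adjusted p = 0.0232), a call that held in 8 of 20 fits with 1 library left out (adjusted p up to 0.152) and in 6 of 9 other settings. Hp, haptoglobin, which is also in the monocyte marker list, averaged 1.40 ± 0.647 CPM in treated macrophages and 260.0 ± 67.9 CPM in treated monocytes. Lcn2, which binds siderophores and is abundant in neutrophils, averaged 0.196 ± 0.124 CPM in treated macrophages and 5.30 ± 5.04 CPM in treated monocytes. Neutrophil marker RNA moved the same way. Of 10 listed neutrophil markers 5 were tested, and all 5 were lower in macrophages in both treatments. The share of all genes lower was 25.7% in treated and 20% in control tumours. S100a9 averaged 0.0758 CPM in treated macrophages and 86.6 CPM in treated monocytes. The part of neutrophil marker RNA in the values of Lcn2 was not tested.

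Within groups, both ferritin genes and Hmox1 varied together from library to library, while Cd163 had an r of -0.16 with Fth1 and -0.0044 with Ftl1. After each group's mean was subtracted, the Pearson r of log2 CPM over the 20 libraries was 0.85 for Fth1 with Ftl1, 0.75 for Hmox1 with Ftl1, 0.72 for Hmox1 with Fth1 and 0.70 for Cp with Tfrc, the highest among 36 pairs that ranged from -0.43 to 0.85. The lowest pair was Ftl1 with Tfrc. Among expressed genes (mean log2 CPM 2 or more), those most like Hmox1 were Ctsd (0.89), Aldoa (0.87), Slc48a1 (0.84), Lgals3 (0.84) and Sqstm1 (0.84). Those most like Tfrc were Brix1 (0.95), Nup37 (0.93), Mrps6 (0.92), Srfbp1 (0.92) and Casp12 (0.92). Those most like Slc40a1 were Slc2a3 (0.89), Alg2 (0.83), Kifbp (0.81), Fam210a (0.80) and Nop2 (0.79). These values describe libraries that share group, depth and admixed RNA, and were each picked as the highest among 9782 or 9783 genes.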

How the data were processed

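Per the labels' protocols, RNA of sorted cells went into a TruSeq stranded kit for total RNA, while the molecule field reads polyA RNA. Reads were aligned with GSNAP to GRCm38, per the submitters' processing notes. Which tool counted the reads, and whether it used strand, was not stated. The deposited counts are whole numbers of uniquely aligned reads per gene model, per the file headers, and the deposited RPKM values (nRPKM) are adjusted by size factors, by the authors. Entrez numbers were matched to symbols of the RefSeq annotation of GRCm38 for 31049 of 36528 models (85.0%), which held 97.97% of counts.

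Counts were tested in R 4.3.3 with edgeR 4.0.16 (filterByExpr, TMM scaling, quasi-likelihood test, 1 mean per group, all 20 libraries), with Benjamini-Hochberg adjustment over 15390 genes and a threshold of 0.05. CPM values use TMM library sizes, and log2 CPM for correlations a prior count of 2. The fit was tested on simulated data. nRPKM served to compare levels between genes and, untested, as an alternative.

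The lowest chi-square per degree of freedom between libraries of a group was 20.5, so none is a copy of another. The labels give no replicate numbers, so replicates are numbered 1 to 5 in accession order. Libraries with neighbouring sample numbers, 1 macrophage and 1 monocyte each, deviated together in all 10 pairs (r 0.22 to 0.72). Other pairings were not computed, so these values do not show that neighbouring numbers share a source. A blocked fit in limma-voom (limma 3.58.1, consensus correlation 0.53) used these pairs as an alternative. Other alternatives were DESeq2 1.42.0, its size factors, library totals, no filter, the compared groups alone, limma-voom with no block, and each library left out. All members are named. Of the other iron genes, up to 3 called genes per role and contrast with the smallest p are named. The members and lists were chosen with earlier results of these data known.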

Additional observations from a re-analysis of the deposited data

Results flagged for a closer look

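In 3 of 36 sets of 5 libraries (9 genes in 4 groups) 1 library stood apart, its gap to the nearest other library exceeding 0.71 of the group's range. Chance gives about 1 such library in 20 sets. Hmox1 measured 382.1 CPM in control macrophage replicate 4, against 207 to 242 CPM in the other control macrophages. Cd163 measured 6.74 CPM in treated macrophage replicate 5, against 0.570 to 1.05 CPM in the other treated macrophages. Fth1 measured 11392.4 CPM in treated monocyte replicate 2, against 6985 to 7859.5 CPM in the other treated monocytes.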

How the results depend on the processing

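The counts of members called for treatment rest on small margins. In macrophages the 1 call became 0 with library totals, with no filter, in limma-voom with the replicate block and without it, with the fibroblast covariate and without the 6 controls. In monocytes the 3 calls became 5 in DESeq2, 1 in fits of the compared groups alone, 1 in limma-voom with no block, 2 with no filter, and 0 with the fibroblast covariate and 0 without the 6 controls. Over all genes the monocyte calls, 1526 higher and 2374 lower, became 5 and 2 with the covariate and 67 and 16 without the 6 controls. Both fibroblast settings were chosen after seeing the data. With library totals 3 monocyte calls were again made, 0 higher and 3 lower. Tfrc stayed among them, while Cp and Slc11a2 took the place of Fth1 and Ftl1. Between cell types the 3 calls in treated tumours became 5 when fitted alone and 4 with library totals, the block, the covariate or without the 6 controls, and the 2 in control tumours became 3 with the covariate and 1 without the 6 controls. With 1 library left out the counts were 0 to 1 in macrophages, 0 to 5 in monocytes, 0 to 0 for the difference of effects, 3 to 4 between treated and 1 to 3 between control cell types. The fit with the replicate block used limma-voom, so it is set against limma-voom with no block. Slc11a1 in macrophages did not pass with the block (adjusted p = 0.0830) or without it (0.0796), nor did Steap1 in macrophages (0.125 and 0.195). In monocytes Ftl1 passed with the block (0.0321) and not without it (0.0516), as did Tfrc (0.0440 and 0.0729), and Tfrc between treated cell types passed with it (0.0117).

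Directions turned mostly in differences that had not passed. Slc11a1 between control cell types became -0.035 with DESeq2 size factors, -0.034 in DESeq2, -0.00092 fitted alone, -0.051 with the fibroblast covariate and -0.19 without the 6 controls. With library totals Slc11a2 for treatment in macrophages became -0.070, and Fth1 and Ftl1 between treated cell types 0.024 and 0.088. Cd163 for treatment in monocytes became 0.18 in limma-voom with the replicate block, 0.18 without it and 0.054 without the 6 controls. The covariate gave 0.017 for Tfrc in macrophages and 0.093 for Steap2 in monocytes, whose call had been -2.82. Without the 6 controls Ftl1 in macrophages was -0.058, Slc11a2 in monocytes 0.011, the differences of effects -0.052 for Tfrc and -0.0020 for Slc11a2, and Slc40a1 between control cell types 0.44. With 1 library left out, the treatment value in macrophages spanned -0.018 to 0.58 for Cp, -0.0011 to 0.45 for Slc40a1 and -0.47 to 1.49 for Cd163, and in monocytes -0.48 to 0.56 for Cd163. The difference of effects spanned -0.58 to 0.00068 for Hmox1, -0.22 to 1.74 for Cd163 and -0.012 to 0.32 for Tfrc. Between treated cell types the values spanned -0.44 to 0.18 for Hmox1, -0.16 to 0.042 for Fth1 and -0.10 to 0.072 for Ftl1, and between control cell types -0.064 to 0.33 for Hmox1 and -0.11 to 0.16 for Slc11a1. The cause of these changes was not tested. The calls of Slc40a1, Cp and Slc11a2 between treated cell types held in all 20 fits with 1 library left out and in all 9 other settings. Low depth limits Cd163 and Slc40a1, whose lowest libraries held 4 and 15 counts.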
